A study of Mus musculus with 29 samples.

Results

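Glutathione transferases join the tripeptide glutathione to electrophilic compounds, and the conjugates are exported from the cell and broken down to mercapturates. The cytosolic enzymes fall into classes named alpha, mu, pi and theta, whose genes sit in clusters of close copies, and liver is a principal site of their expression. Several are induced through the transcription factor NRF2 at antioxidant response elements. The 10 transferase genes described here were taken by symbol from the 38124 genes of the deposited tables. They are the alpha class genes Gsta2, Gsta3 and Gsta4, the mu class genes Gstm1, Gstm2, Gstm3 and Gstm6, the pi class gene Gstp1 and the theta class genes Gstt1 and Gstt3. All 10 had enough reads to be tested in liver and 7 in muscle, where Gsta2, Gstm3 and Gstm6 did not.

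The RNA came from liver and entire hindlimb muscle of 16 mice, all males of the inbred strain C57BL/6, which were obtained aged 14 weeks and divided among the diets when 4 months old. The calorie-restricted mice ate 60% of ad libitum intake (8.6 kcal per day) on diets labelled soy, fish or lard after their fat, and control mice ate 95% of it (13.6 kcal per day). Control mice were therefore not fully fed, and no control group on each of the 3 fats was analysed here. Liver was represented by 4 soy, 4 fish, 4 lard and 3 control libraries, and muscle by 3 soy, 3 fish, 4 lard and 4 control libraries, 1 per mouse. The submitters had set aside 1 control liver and 1 fish muscle. The study asked how far omega-3 fat moves the expression profile of restricted mice back toward control, so each restricted diet was set against control and the fats were set against each other. In bulk tissue a lower level can come from fewer cells of a type or from less RNA per cell, and these cannot be told apart.

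Each library held 11315231 to 27106865 reads on exons, with a median of 15316165. The tissue labels held: 10 hepatocyte markers summed to at least 105763 CPM (reads per 1000000 exon reads of the library) in livers and at most 735 CPM in muscles, and 10 skeletal muscle markers to at most 3576 CPM in livers and at least 146785 CPM in muscles. The 3576 CPM was that of fish liver 1123, and the other livers were at 222 to 461 CPM. A pair of libraries stood apart in each tissue. The soy livers of mice 1073 and 1159 had 5.41% to 5.47% of gene reads outside exons, against 7.90% to 8.92% in the other 13 livers. In them 8 pericentral hepatocyte markers summed to 1551 to 1672 CPM, against 1810 to 7466 CPM elsewhere. The 7466 CPM was that of lard liver 1130 alone, and the rest of the other livers were at 1810 to 2429 CPM. In the control muscles of mice 1071 and 1120, 8 red cell markers summed to 1989 to 7680 CPM, against 219 to 1082 CPM in the other 12 muscles, and 8 neutrophil markers to 276 to 1169 CPM, against 0.183 to 2.62 CPM.

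The genes lie in family clusters on the mouse genome (GRCm38, GENCODE M21). The mu class genes are neighbours on chromosome 3, all on the minus strand: Gstm6 at chr3:107938847-107943749, Gstm3 at chr3:107963696-107969283, Gstm2 at chr3:107981702-107986453 and Gstm1 at chr3:108012255-108017973. Gsta4 (chr9:78182774-78209349, plus strand) and Gsta2 (chr9:78331018-78355788, minus strand) share chromosome 9, while Gsta3 lies alone on chromosome 1 (chr1:21240589-21265661, plus strand). Gstt3 (chr10:75774115-75781414) and Gstt1 (chr10:75783813-75798584) are adjacent on the minus strand of chromosome 10, and Gstp1 (chr19:4035407-4037985) is on the minus strand of chromosome 19. The exons of Gstt3 overlap those of Gm20441 on the same strand over 524 bases. The other 9 genes share no exon base with another annotated gene.

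The share of reads placed uniquely differed widely between the genes, and several of them share sequence with other genes. Gstp1 and its neighbour Gstp2 are 98.1% identical over their coding sequence, and the first 60 coding bases of both, from GENCODE M21 on GRCm38, are shown with the 6 bases that differ in capitals.
Gstp1: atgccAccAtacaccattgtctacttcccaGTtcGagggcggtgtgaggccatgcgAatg
Gstp2: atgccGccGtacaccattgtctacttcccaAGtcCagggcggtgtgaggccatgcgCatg
Of the 50-base words in the Gstp1 transcript, 62.3% also occur in Gstp2, and 38.8% to 47.4% of its exon reads in liver and 35.9% to 45.5% in muscle were unique. Gsta2 shares 64.2% of its words with other transcripts, among them Gsta1, and 61.0% to 72.0% of its liver reads were unique. Of the Gstt3 liver reads a median of 17.8% were unique, and of the Gstm2 liver reads 75.1% to 83.4%. Gsta3, Gsta4 and Gstt1 share no such word with another transcript, and all their reads were unique. The levels of Gstp1, Gsta2 and Gstt3 are therefore uncertain to the extent that reads of other genes were assigned to them.

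The tissues differed more than the diets did. By edgeR's quasi-likelihood test over all 29 libraries, 9 of the 10 transferase genes were higher in liver than in muscle at an adjusted p under 0.05, against a background of 42.7% of all genes tested. Gstm3 (8.50 ± 0.34, log2 fold change ± SE), Gsta3 (8.02 ± 0.22), Gsta2 (7.91 ± 0.31) and Gstm6 (7.41 ± 0.15) had the widest differences. However, Gsta2, Gstm3 and Gstm6 held only 9, 16 and 103 reads in all 14 muscle libraries together, and their fitted values rest on these. They entered the joint fit through their liver reads, so their direction was set by the count filter. Of the 7 genes tested in both tissues all but Gstm2 were higher in liver. Gstt3 (4.82 ± 0.11), Gstt1 (4.81 ± 0.16), Gstm1 (3.0 ± 0.12) and Gsta4 (2.10 ± 0.14) followed. Gstp1 was 1.71 ± 0.20 higher in liver (adjusted p = 9.93e-09), but its libraries overlapped between the tissues, at 238 to 1158 CPM in liver and 110 to 255 CPM in muscle. Gstm2 was the exception, at 0.16 ± 0.16 (adjusted p = 0.330), with 25.7 to 127 CPM in livers and 29 to 103 CPM in muscles. The ranges of the other 8 genes did not overlap between tissues, which was so for 20.8% of all genes in that direction. Gsta2, Gstm3 and Gstm6, chosen by the filter through liver, are among the 8.

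To set the genes beside each other their levels were read as RPKM, the authors' read counts scaled by exon length and library size. In liver Gsta3, which in mice detoxifies the epoxide of aflatoxin B1, had the highest median, 1176 RPKM (795 to 2188), followed by Gstm1 at 651 RPKM (495 to 948) and Gstp1 at 413 RPKM (293 to 1471), and the ranges of these neighbours overlapped. Gstt1, whose enzyme acts on small halogenated compounds, stood apart on both sides at 192 RPKM (162 to 270). The others lay below it in overlapping order: Gsta4 at 54.8 RPKM, Gstm2 at 45.2, Gstm6 at 34.0, Gstt3 at 30.3, Gstm3 at 17.6 and Gsta2 at 7.83. In muscle Gstp1 led at 171 RPKM (139 to 319), above Gstm1 at 86.1, Gstm2 at 42.5, Gsta4 at 13.4, Gstt1 at 7.06 and Gsta3 at 4.47 RPKM. Gsta3 held a median of 44.5% of the summed RPKM of the 10 genes in a liver and 1.47% in a muscle, whereas Gstp1 held 16.8% in a liver and 52.9% in a muscle.

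**Figure D1:**
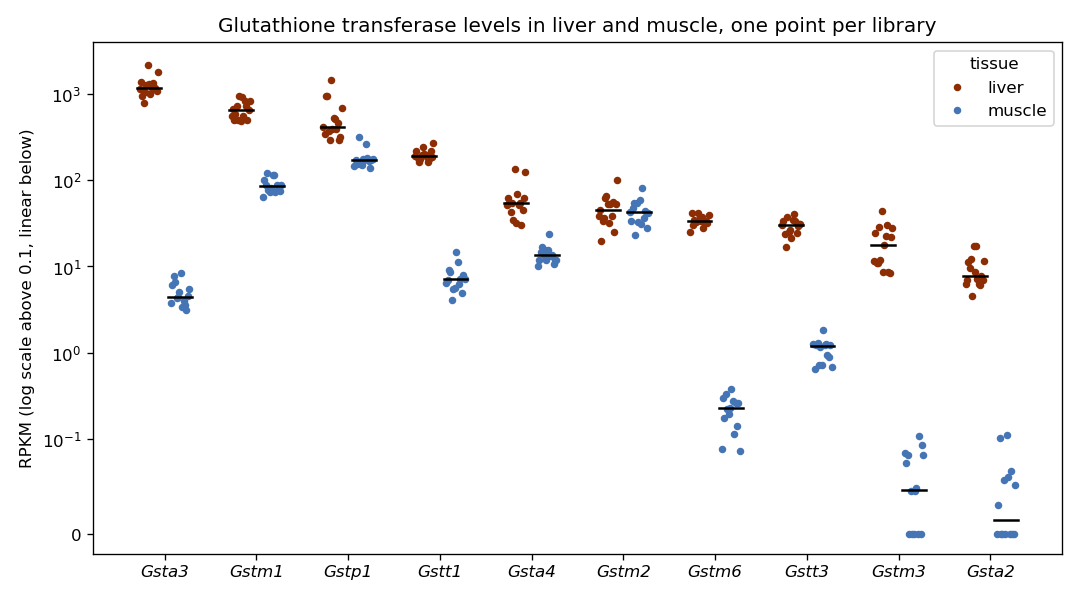
Level of each of the 10 transferase genes in RPKM (vertical axis, logarithmic above 0.1 and linear below), with 1 point per library, 15 livers to the left and 14 muscles to the right of each pair, and a bar at the median. Gstm2 is at the same height in both tissues (45.2 and 42.5 RPKM), whereas Gsta3 is at 1176 RPKM in liver and 4.47 RPKM in muscle.

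Gstp2 had the opposite pattern to Gstp1. It was at 0.216 to 5.49 RPKM in livers and 43.8 to 102 RPKM in muscles, and a median of 37.7% of its liver reads and 36.6% of its muscle reads were unique. The promoters of both genes are shown for the 250 bases before the start site (RefSeq, GRCm38.p6, minus strand, Gstp1 at chr19:4037913-4038162 and Gstp2 at chr19:4042222-4042471), with the match to an AP-1 site in capitals.
Gstp1: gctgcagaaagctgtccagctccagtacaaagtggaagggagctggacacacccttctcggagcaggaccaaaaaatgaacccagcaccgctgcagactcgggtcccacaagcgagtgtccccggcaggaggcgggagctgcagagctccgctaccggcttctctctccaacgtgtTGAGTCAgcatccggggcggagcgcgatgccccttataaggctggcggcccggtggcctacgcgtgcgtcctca
Gstp2: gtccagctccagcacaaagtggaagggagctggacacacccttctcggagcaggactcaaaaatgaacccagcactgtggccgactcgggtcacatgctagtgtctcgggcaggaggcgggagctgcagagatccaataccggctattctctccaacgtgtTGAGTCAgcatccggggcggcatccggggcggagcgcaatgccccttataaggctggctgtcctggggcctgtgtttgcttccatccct
The windows are 82.8% identical. TGACTCA, searched on both strands, occurs with its first base at position -74 in Gstp1 and -89 in Gstp2, and in 4.46% of 32851 promoter windows of this length. Among the other transferase genes, windows of Gstm5 and Mgst2 also hold these letters. The match is a description of the letters and not of a bound site.

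The same windows were searched on both strands for TGACNNNGC, the core letters of the antioxidant response element, which occurs in 10.2% of all windows and does not overlap the AP-1 match. Of the 9 genes with a window, Gsta3 alone held it, as TGACATTGC at position -121 (chr1:21240335-21240584, plus strand, RefSeq GRCm38.p6, the match in capitals).
Gsta3: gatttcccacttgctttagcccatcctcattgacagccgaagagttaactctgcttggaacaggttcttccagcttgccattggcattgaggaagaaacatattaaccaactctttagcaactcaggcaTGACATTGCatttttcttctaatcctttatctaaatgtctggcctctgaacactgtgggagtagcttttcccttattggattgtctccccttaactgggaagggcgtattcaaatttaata
No window was used for Gsta4. Among the other transferase genes, windows of Gstm5, Gstm7 and Mgst1 also hold the core letters. Only exact matches to TGACNNNGC were searched for. Sites that differ from it by a single letter, in Gstp1 or any other window, were not looked for.

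Restriction on the soy diet was set against control in liver first, because the 1 diet call among the 10 genes fell there. Gsta4, whose enzyme conjugates 4-hydroxynonenal and other aldehydes of lipid peroxidation, was at 54.4, 137, 57.4 and 128 CPM in the soy livers of mice 1065, 1073, 1141 and 1159, against 44.1, 33.5 and 31.5 CPM in control livers. All 4 soy livers lay above all 3 control livers, and the highest were the livers that stood apart, 1073 and 1159. Gsta4 rose by 1.57 ± 0.34 on the log2 scale (edgeR adjusted p = 0.0394), where 0.399% of all genes tested were called higher and 1.17% in either direction. The call was lost at an unchanged size with the library number as a term (1.56 ± 0.37, edgeR adjusted p = 0.0713) and in a fit of the soy and control livers alone (1.56 ± 0.40, adjusted p = 0.265). Without livers 1073 and 1159 the value was 0.69 ± 0.21 (edgeR adjusted p = 0.184), and the call was lost on removal of any 1 of 12 of the 15 livers, with adjusted p up to 0.150, the exceptions being soy livers 1065 and 1141 and lard liver 1102. The part of those livers' lower reads outside exons and pericentral markers in this rise was not tested.

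Gstm3 and Gstt3 also lay higher in every soy liver than in any control liver without passing the test. Gstm3 was at 17.5, 65.8, 46.0 and 41.1 CPM in soy livers and 16.6, 13 and 13.2 CPM in control livers. The lowest soy liver, 1065, was close to the highest control liver. The difference was 1.75 ± 0.44 (edgeR adjusted p = 0.0582), and 1.20 ± 0.46 without livers 1073 and 1159. Gstt3, a theta class gene, was at 84.6, 71.5, 95.5 and 85.3 CPM in soy livers and 47.3, 59.2 and 68.9 CPM in control livers. Its difference of 0.66 ± 0.19 (adjusted p = 0.0838) was 0.67 ± 0.22 without those livers, and 0.39 ± 0.20 on the unique reads. Groups that did not overlap in the higher direction made up 2.78% of all genes.

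The soy values of all 10 genes were above 0, at a median of 0.52 against 0.004 over all genes tested, but without livers 1073 and 1159 the values of 6 genes were above 0 and of 4 below, at a median of 0.13. The genes below 0 were then Gstp1 at -0.50 ± 0.43, Gstm6 at -0.32 ± 0.13, Gsta2 at -0.31 ± 0.27 and Gstm2 at -0.28 ± 0.25. In the fit of all livers 5 of the 10 were at an unadjusted p under 0.05, where 22.3% of all genes were, and DESeq2 called 3, where it called 6.76% of all genes. Gsta3 was at 0.70 ± 0.25, Gstm1 at 0.53 ± 0.23, Gsta2 at 0.50 ± 0.35, Gstm2 at 0.49 ± 0.33, Gstp1 at 0.48 ± 0.47, Gstt1 at 0.40 ± 0.19 and Gstm6 at 0.10 ± 0.19, none past the threshold. Livers 1073 and 1159 were again high for Gsta3, which was at 2898 and 2377 CPM in livers 1073 and 1159, against 1549 and 1852 CPM in the other soy livers and 1083 to 1800 CPM in control livers.

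**Figure D2:**
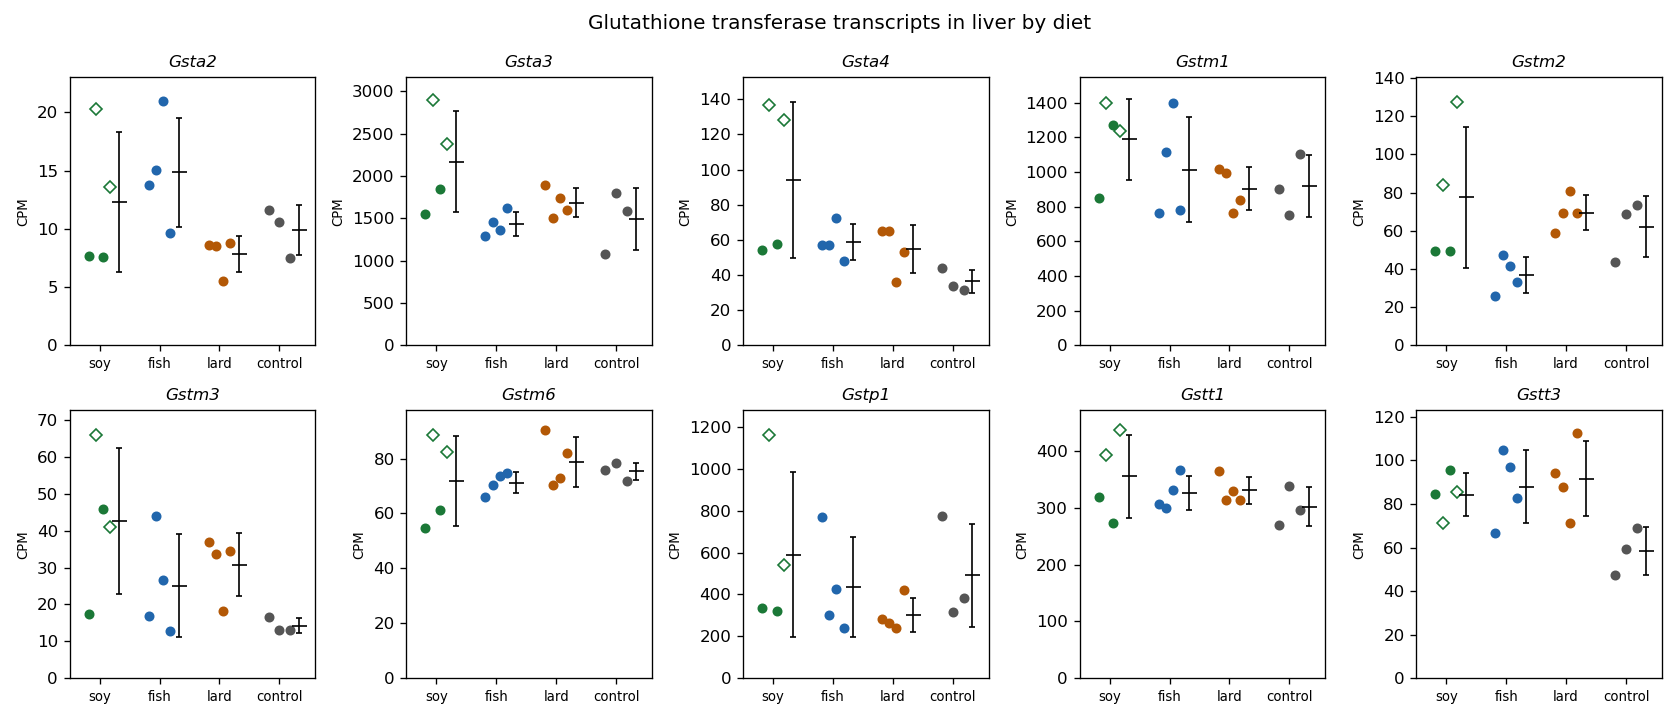
CPM of each transferase gene in every liver by diet, with soy, fish, lard and control from left to right; the bar and whiskers give the mean and SD, and open diamonds mark the soy livers of mice 1073 and 1159. In the Gsta4 panel the diamonds are at 137 and 128 CPM and the other soy livers at 54.4 and 57.4 CPM, all above the control livers at 31.5 to 44.1 CPM.

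On the fish and lard diets no transferase gene passed against control in liver. The share of all genes called was 0.383% for fish and 0.508% for lard. At an unadjusted p under 0.05 the edgeR test gave 2 of 10 genes on each diet, where it gave 8.93% of all genes on fish and 9.99% on lard. DESeq2 called 0 on fish and 1, Gstt3, on lard, where it called 1.29% and 2.1% of all genes. These comparisons and that of soy share the 3 control livers. Gsta4 was at 57.2, 57.4, 72.6 and 48.1 CPM in fish livers and 65.2, 36.0, 53.2 and 65.3 CPM in lard livers, against the 31.5 to 44.1 CPM of control. Every fish liver lay above the control livers, as did all but 1 lard liver, with differences of 0.66 ± 0.33 on fish (adjusted p = 0.619) and 0.70 ± 0.33 on lard (adjusted p = 0.507). Fish and control groups did not overlap, in the higher direction, for 7.17% of all genes.

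Gstt3 and Gstm3 were above control in every lard liver as well. Gstt3 was at 94.3, 71.2, 113 and 87.9 CPM in lard livers, all above the control maximum of 68.9 CPM, and differed by 0.73 ± 0.19 (edgeR adjusted p = 0.111). Gstm3 was at 36.8, 18.1, 34.6 and 33.6 CPM in lard livers, all above the control maximum of 16.6 CPM, and differed by 1.21 ± 0.43 (adjusted p = 0.289). Such separation held for 3.32% of all genes. In fish livers Gstt3 was at 66.7, 105, 97.2 and 82.8 CPM, where the lowest fell within the control range, and Gstm3 at 16.9, 44, 26.7 and 12.9 CPM, where the lowest was below every control liver. Their differences on fish were 0.54 ± 0.19 (adjusted p = 0.360) and 0.76 ± 0.43 (adjusted p = 0.683).

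Taken over the 3 restricted diets, 0 of 10 transferase genes passed against control in liver by edgeR, where 1.08% of all genes were called. At an unadjusted p under 0.05 there were 3, with values above 0, where 11.7% of all genes were. DESeq2 called the same 3, Gsta4, Gstm3 and Gstt3, and 2.65% of all genes. Their edgeR values were 0.97 ± 0.30 (adjusted p = 0.166), 1.24 ± 0.39 (adjusted p = 0.172) and 0.64 ± 0.16 (adjusted p = 0.0821). Without soy livers 1073 and 1159 Gsta4 was at 0.68 ± 0.16 and passed (edgeR adjusted p = 0.0494). The other 7 genes lay between -0.10 ± 0.39 for Gstp1 and 0.28 ± 0.21 for Gsta3.

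**Figure D3:**
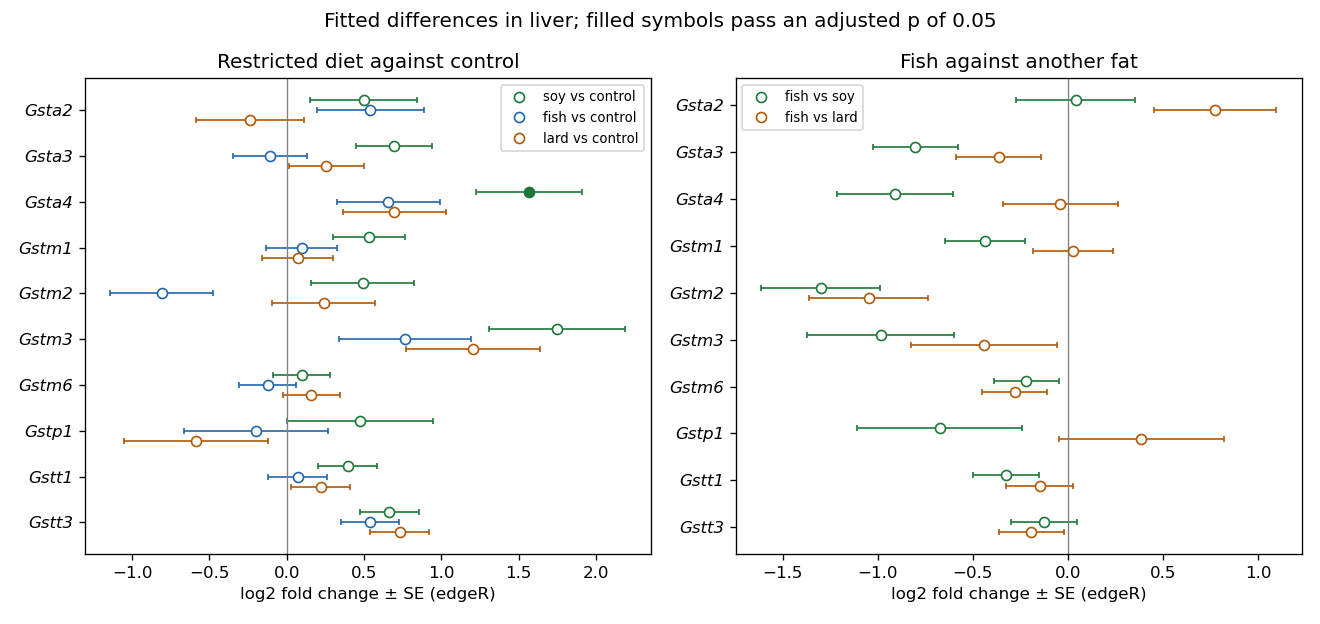
Fitted log2 fold change with its SE for each transferase gene in liver, for each restricted diet against control (left) and for fish against soy and lard (right); a filled symbol marks an adjusted p under 0.05. The filled symbol is Gsta4 on soy, at 1.57, and Gstm2 is lowest in both comparisons of fish with another fat, at -1.30 and -1.05.

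The fat sources were compared within restricted livers. For Gstm2, a mu class gene whose human counterpart detoxifies aminochrome, fish livers were at 25.7, 47.2, 41.5 and 33.1 CPM, against 49.5, 83.7, 49.6 and 127 CPM in soy livers and 58.7, 80.8, 69.1 and 69.2 CPM in lard livers. All 4 fish livers lay below all 8 livers of the other fats, although the highest fish liver and the lowest soy livers were close. The control livers, at 43.8, 68.8 and 73.6 CPM, overlapped the fish livers. Fish differed from soy by -1.30 ± 0.31 (edgeR adjusted p = 0.106) and from lard by -1.05 ± 0.31 (adjusted p = 0.240). Lower groups that did not overlap made up 0.774% of all genes for fish against soy and 1.49% for fish against lard.

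The Gstm2 difference between fish and lard passed or missed the threshold with the libraries in the fit. Without soy livers 1073 and 1159, which are in neither group, it was -1.05 ± 0.20 and passed (edgeR adjusted p = 0.0340), where it had not in the fit of all livers. Against soy the value without them was -0.53 ± 0.24 (adjusted p = 0.533).

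In fish against soy livers 9 of the 10 transferase values were below 0, at a median of -0.56 against 0.02 over all genes, but without soy livers 1073 and 1159 only 6 were, at a median of -0.09. In the fit of all livers 0 passed by edgeR, where 0.0938% of all genes did. At an unadjusted p under 0.05 there were 4, where 23.1% of all genes were. DESeq2 called 3, Gstm2, Gsta3 and Gsta4, and 5.75% of all genes. Gsta3 was at 1290, 1457, 1360 and 1626 CPM in fish livers and 1549, 2898, 1852 and 2377 CPM in soy livers, a difference of -0.80 ± 0.22 (edgeR adjusted p = 0.106). The groups overlapped at the lowest soy liver, 1065. Without soy livers 1073 and 1159 Gsta3 was at -0.35 ± 0.20, Gsta4, at -0.91 ± 0.30 with them, was at -0.04 ± 0.20, and Gstp1, at -0.67 ± 0.44 with them, was at 0.29 ± 0.41.

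Against lard the fish livers had 0 transferase genes past the edgeR test, where 0.203% of all genes passed, 2 at an unadjusted p under 0.05, where 9.98% of all genes were, and 0 by DESeq2, which called 1.28% of all genes. Gsta2, an alpha class gene active on organic hydroperoxides, was at 13.8, 15.0, 21.0 and 9.64 CPM in fish livers and 8.60, 5.57, 8.75 and 8.50 CPM in lard livers. Every fish liver was above every lard liver, which was so for 12.6% of all genes, and the difference was 0.77 ± 0.32 (edgeR adjusted p = 0.430). In lard against soy livers no gene of any kind passed, a share of 0%. Of the 10 transferase genes 4 were at an unadjusted p under 0.05, with values below 0, where 17.3% of all genes were, and DESeq2 called 0, against 0.414% of all genes. Gstp1 was at -1.06 ± 0.44 and Gsta4 at -0.87 ± 0.30 (adjusted p = 0.258 and 0.229), but without soy livers 1073 and 1159 Gstp1 was at -0.09 ± 0.40 and Gsta4 at 0.0034 ± 0.20, and 8 of the 10 values were above 0.

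Gstp1, the pi class gene, differed widely between mice of the same diet, and its highest level over the 15 livers was 4.87 times its lowest. It was at 335, 1158, 320 and 542 CPM in soy livers, 771, 303, 427 and 242 CPM in fish livers and 283, 238, 422 and 262 CPM in lard livers, against 772, 319 and 381 CPM in control livers. A single liver in each of the soy, fish and control groups was at 771 CPM or above, and the groups overlapped throughout. Gstm1 (749 to 1398 CPM), Gstt1 (270 to 436 CPM) and Gstm6 (54.7 to 90.3 CPM) had the narrowest ranges over the 15 livers, with a highest level 1.87, 1.62 and 1.65 times the lowest, and their diet groups overlapped in every comparison.

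In muscle 0 of the 7 transferase genes tested passed for restricted against control by edgeR, where 3.49% of all genes did. There were 3 at an unadjusted p under 0.05, where 26.4% of all genes were, and DESeq2 called 1, Gstp1, and 9.67% of all genes. Gstp1 was at 117, 138 and 110 CPM in soy muscles, 122, 121 and 144 CPM in fish muscles and 135, 140, 132 and 139 CPM in lard muscles, against 255, 122, 208 and 136 CPM in the control muscles of mice 1071, 1095, 1120 and 1121. The high values were those of the control muscles that stood apart, 1071 and 1120, and the other control muscles lay within the restricted range. The difference was -0.50 ± 0.16 (edgeR adjusted p = 0.0817) and -0.02 ± 0.09 without those muscles. Gsta4 was at 10.4 to 16.2 CPM in restricted muscles, against 17.2, 13.9, 23.9 and 12.2 CPM in control muscles, a difference of -0.35 ± 0.14 (adjusted p = 0.136) that was 0.00091 ± 0.12 without them. Of 9168 genes searched, Urm1 was the closest to Gsta4 over the 14 muscles, at a Pearson correlation of 0.94, or 0.78 over 12 without those muscles. Hbb-bt, a beta globin gene, was the second closest, at 0.91 over 14 and 0.62 over 12. The red cell and neutrophil markers were also highest in muscles 1071 and 1120, at the sums given above, and their part in these differences was not tested.

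**Figure D4:**
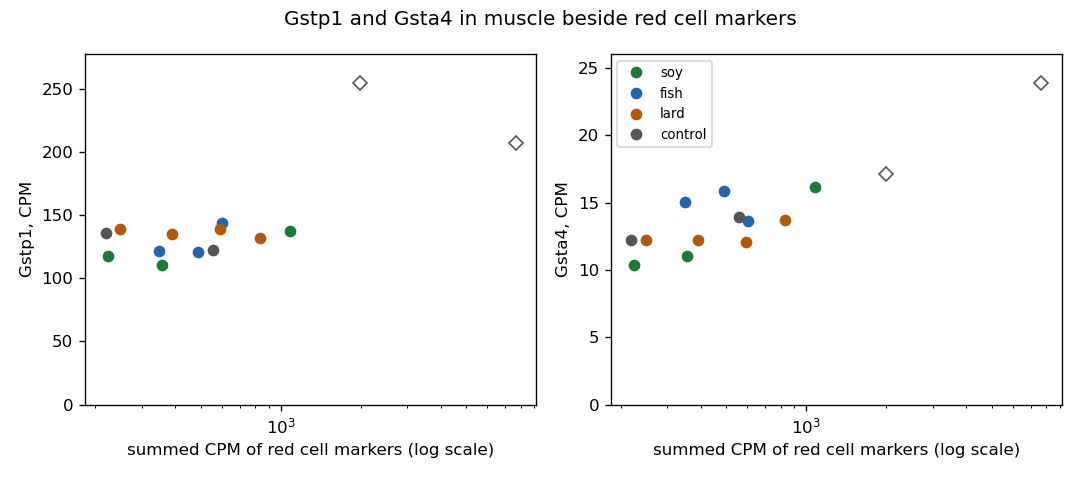
CPM of Gstp1 (left) and Gsta4 (right) in each muscle against the summed CPM of 8 red cell markers (logarithmic axis), coloured by diet, with open diamonds for control muscles 1071 and 1120. The diamonds are at 1989 and 7680 CPM of red cell markers and have the highest Gstp1, 255 and 208 CPM, and the highest Gsta4, 17.2 and 23.9 CPM.

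Gstm2 differed between restricted and control muscle by 0.45 ± 0.21 (edgeR adjusted p = 0.180), and by 0.89 ± 0.17 without control muscles 1071 and 1120 (adjusted p = 0.141). Fish muscles were at 60.3, 69.1 and 103 CPM, soy muscles at 55.0, 76.0 and 56.5 CPM and lard muscles at 42.3, 41.9, 46.3 and 52.4 CPM, against 69.2, 29, 39.0 and 35.8 CPM in control muscles. Every fish and soy muscle was above every lard muscle, and the highest control muscle was 1071. Fish differed from lard by 0.65 ± 0.26 and lard from soy by -0.35 ± 0.26, both at an adjusted p of 1.0, with 0% of all genes called in either comparison. Higher groups that did not overlap made up 8.87% of all genes for fish against lard, and lower ones 5.91% for lard against soy.

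The order of fish and lard for Gstm2 was thus opposite in the tissues, with every fish liver below and every fish muscle above the lard samples. The difference between the tissues in the fish against lard effect was -1.67 ± 0.43 in a fit of all 29 libraries (edgeR adjusted p = 0.219). This comparison was added after the Gstm2 values were seen. It passed without the 4 libraries that stood apart, at -1.67 ± 0.28 (adjusted p = 0.0211), and DESeq2 called it with 0.332% of all genes, while 0.0424% of all genes were called in the fit of all libraries.

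**Figure D5:**
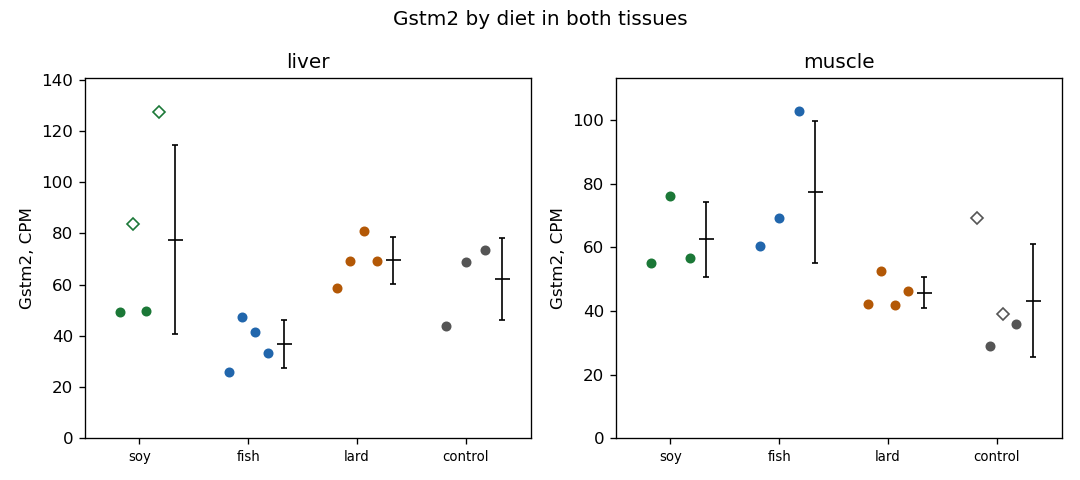
CPM of Gstm2 by diet in liver (left) and muscle (right), with 1 point per library, the mean and SD beside each group, and open diamonds for the libraries that stood apart. The fish livers (25.7 to 47.2 CPM) are below the lard livers (58.7 to 80.8 CPM), and the fish muscles (60.3 to 103 CPM) are above the lard muscles (41.9 to 52.4 CPM).

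In the other single-diet comparisons in muscle no transferase gene passed. The share of all genes called was 0% for soy, 0.00763% for fish and 0% for lard against control, and 0% for fish against soy. At an unadjusted p under 0.05 there were 2 of 7 transferase genes in each comparison with control, where there were 17.4% of all genes on soy, 18.4% on fish and 17.3% on lard. In fish against soy there were 0, where there were 2.2% of all genes. DESeq2 called 0 transferase genes in all 4, and 1.81%, 2.96%, 2.36% and 0% of all genes on soy, fish and lard against control and in fish against soy. Gstt3 was at 3.31, 3.20 and 3.42 CPM in fish muscles and 1.77, 1.98, 2.53 and 1.83 CPM in lard muscles, which did not overlap, a difference of 0.62 ± 0.25 at an adjusted p of 1.0. The restriction effect was compared between tissues in the joint fit, where 0.657% of all genes differed. No transferase gene passed by edgeR, 2 of 10 were at an unadjusted p under 0.05, where 18.3% of all genes were, and DESeq2 called 1, Gsta4, and 3.14% of all genes. For Gsta4 the difference, liver minus muscle, was 1.32 ± 0.33 (adjusted p = 0.0586), and 0.68 ± 0.22 without the libraries that stood apart.

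The levels of some transferase genes moved together across the 15 livers, which is given as a description of libraries that share diets and the pair standing apart. The Pearson correlation of log2 CPM was 0.87 between Gsta3 and Gstt1, 0.80 between Gsta4 and Gstm3, 0.77 between Gsta3 and Gstm2 and -0.30 between Gstp1 and Gstt3. Outside the family the closest genes were the highest of 9146 searched in liver and 9168 in muscle. The gene closest to Gsta4 was Rpl10, which encodes a ribosomal protein. Its correlation was 0.96 over 15 livers and 0.86 over the 13 without livers 1073 and 1159. Naxd, which repairs hydrated NADH, followed at 0.96 and 0.95. Adh1, an alcohol dehydrogenase, was closest to Gsta3 at 0.95 and 0.87, and Orm1, an acute phase protein gene, was closest to Gstm2 at 0.94 and 0.89. In muscle Cuta was closest to Gstp1 at 0.99 over 14 and 0.89 over 12 libraries.

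Other genes of glutathione metabolism were counted from lists. For soy against control liver 1.17% of all genes passed edgeR, 22.3% were at an unadjusted p under 0.05 and 6.76% were called by DESeq2. Of 15 further transferase genes tested in liver, 0 passed edgeR for soy against control, 5 were at an unadjusted p under 0.05, with values above 0, and DESeq2 called 3. Of 19 genes of glutathione synthesis and recycling 1 passed. Cth, which releases cysteine from cystathionine, rose by 0.45 ± 0.10 to 300 ± 14.6 CPM in soy livers, against 244 ± 7.75 CPM in control livers (SD, n = 4 and 3; edgeR adjusted p = 0.0453). Of 18 other targets of NRF2 and of the receptor CAR, 1 rose, the carbonyl reductase gene Cbr1, by 1.38 ± 0.24 to 172 ± 43.8 CPM in soy livers, against 74.2 ± 7.05 CPM in control livers (adjusted p = 0.0121). Both calls were lost without livers 1073 and 1159, at 0.41 ± 0.10 for Cth and 0.94 ± 0.20 for Cbr1. Of 18 genes that regulate transferases 0 passed edgeR on soy, 4 were at an unadjusted p under 0.05, a share near that of all genes, and DESeq2 called 1.

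Of 18 genes for conjugate breakdown and export tested in liver, Abcc3 was the 1 that passed on soy, where 1.17% of all genes did. It exports conjugates toward the blood, and was at 137 ± 37.2 CPM in soy livers, 335 ± 32.6 CPM in fish livers and 161 ± 25.4 CPM in lard livers (SD, n = 4 each), against 297 ± 31.6 CPM in control livers (n = 3). Abcc3 fell by 0.97 ± 0.17 on soy against control (edgeR adjusted p = 0.0141). It rose in fish livers against soy livers by 1.11 ± 0.16 (adjusted p = 0.0306), where 0.0938% of all genes passed. Against lard livers it rose by 0.92 ± 0.16 (adjusted p = 0.0354), where 0.203% of all genes passed. Without soy livers 1073 and 1159 the first 2 calls were lost at values of -0.91 ± 0.19 and 1.05 ± 0.18. Abcg2, another exporter, had a difference in restriction effect, liver minus muscle, of -1.15 ± 0.21 (adjusted p = 0.0119), where 0.657% of all genes passed. Over the 3 restricted diets Nat8f5, listed here under mercapturate formation, fell by 2.55 ± 0.53 in liver (edgeR adjusted p = 0.0306), where 1.08% of all genes passed. Its level was low, at 1.70 to 10.8 CPM in control livers and an overlapping 0.484 to 4.33 CPM in lard livers. Soy livers were at 0.249 to 1.10 CPM and fish livers at 0.196 to 1.56 CPM. By liver group 23.7% to 27.8% of its reads were unique. Without control liver 1120 the value was -1.85 ± 0.62 (adjusted p = 0.346). The peptidase genes Ggt5 and Cndp2 fell in muscle by 0.52 ± 0.12 and 0.41 ± 0.10 (adjusted p = 0.0422 and 0.0472), where 3.49% of all genes passed. Without control muscles 1071 and 1120, which carry the red cell and neutrophil markers, both muscle calls were lost, at -0.43 ± 0.14 for Ggt5 and -0.17 ± 0.07 for Cndp2 (adjusted p = 0.334 and 0.494). On lard the aldehyde oxidase gene Aox1 fell by 0.71 ± 0.14 in liver (adjusted p = 0.0405), where 0.508% of all genes passed. Leaving out single libraries ended the calls of Cth in 12 of 15 removals, of Abcc3 in 2 of 15 against control, 5 of 15 against soy and 10 of 15 against lard, of Cbr1 in 2 of 15, of Nat8f5 in 4 of 15, of Aox1 in 7 of 15, of Ggt5 and Cndp2 in 11 of 14 each and of Abcg2 in 1 of 29. With the library number as a term the calls were lost for Nat8f5 (edgeR adjusted p = 0.145), Cth (0.0796), Abcc3 in fish against lard (0.0586), Ggt5 (0.0668) and Cndp2 (0.0553). With the compared diets alone they were lost for Cth (0.351), Cbr1 (0.102) and Abcc3 against control (0.161) and in fish against soy (0.206). The Cth call was also lost with no filter on low counts (edgeR adjusted p = 0.0718).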

How the data were processed

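The deposited tables hold, per library and gene, the authors' whole-number read counts (total exon, unique exon and total gene reads) and their RPKM values, per the file headers. FastQC and GRCm38 are named in the submitters' processing notes; the aligner, the counting of reads with several placements, the annotation and the use of strand were not given in the sources used here. Of 38124 Ensembl identifiers 36345 matched a symbol. The files repeat 29 columns of total exon reads, from soy, fish and lard libraries, and 0 of these differed. No control library had a repeated column to compare.

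Total exon counts were tested in edgeR 4.0.16 (R 4.3.3, limma 3.58.1) with filterByExpr at a minimum count of 10, TMM factors and the quasi-likelihood F test, with Benjamini-Hochberg adjustment over all genes tested (12788 in liver, 13104 in muscle, 14150 jointly) and a threshold of 0.05. The 4 diets of a tissue shared 1 fit, and comparisons of tissues used 1 fit of 8 groups. SE is the log2 fold change divided by the square root of F. CPM is per 1000000 exon reads. Replicates were separate mice. The scripts were tested on simulated data.

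All 10 transferase genes are named, and from each list up to 3 genes of smallest p past the threshold per comparison. Those of the tissue comparison are not printed. Likeness was Pearson's r of log2 CPM (prior count 2) among genes averaging at least 5 CPM, and the closest 2 genes per transferase gene were considered. The transferase genes, lists and libraries that stood apart were chosen with earlier results of these data known. Alternatives were DESeq2 1.42.0 with its Wald test, DESeq2 size factors, no count filter, unique reads, a term for the library number, fits of the compared diets alone, removal of each library, removal of those that stood apart, and the animal as a block. Pairing follows from the animal: 13 mice gave both tissues, and the correlation of their deviations from the group means between tissues was -0.0867 to 0.151.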

Additional observations from a re-analysis of the deposited data

Results flagged for a closer look

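In groups of 4 libraries a single library lay far from the others in 3 of 44 groups examined, where chance marks about 1 in 20. Gsta2 was at 5.57 CPM in lard liver 1102, against 8.50 to 8.75 CPM in the other lard livers. Gsta4 was at 13.7 CPM in lard muscle 1130, against 12.0 to 12.3 CPM in the other lard muscles. Gstt1 was at 9.13 CPM in lard muscle 1102, against 11.3 to 11.7 CPM in the others.

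Gstm2 differed between fish and lard in opposite directions in the tissues, with values of -1.05 in liver and 0.65 in muscle on the log2 scale and no overlap of the groups in either. The difference itself was tested by an interaction term, at -1.67 ± 0.43 (edgeR adjusted p = 0.219).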

How the results depend on the processing

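Counts below are of transferase genes past the threshold. With DESeq2 the count was 3 in place of 0 for restricted against control liver, 3 in place of 1 for soy against control liver, 1 in place of 0 for lard against control liver, 3 in place of 0 for fish against soy liver, and 1 in place of 0 for restricted against control muscle and for the tissue differences in the restriction and the fish against lard effects. Without the libraries that stood apart it was 1 for restricted against control liver, fish against lard liver and the tissue difference in the fish against lard effect, and 0 for soy against control liver. With the compared diets alone it was 0 for soy against control, 1 for lard against control and 1 for fish against lard in liver. With the library number as a term it was 0 for soy against control liver. Removing single libraries gave 0 to 4 for soy against control and fish against soy liver (4 in both when soy liver 1065 was left out, and 2 and 3 when 1141 was), 0 to 1 for lard against soy liver (1 without soy liver 1065), 0 to 2 for restricted against control muscle (2 without control muscle 1121, 1 without 1095) and 0 to 2 for the tissue difference in the restriction effect (2 without control muscle 1095, 1 without control muscle 1121 or soy liver 1065 or 1141). For the other comparisons the count was 9 between tissues and 0 elsewhere under every alternative run. Gsta4 changed sign without the libraries that stood apart, to 0.0034 for lard against soy liver and 0.00091 for restricted against control muscle. The cause of these changes was not tested. With the animal as a replicate block, Gsta4 was at 1.11 ± 0.28 for the tissue difference in the restriction effect (edgeR adjusted p = 0.169) and Gstm2 at -1.68 ± 0.26 for that in the fish against lard effect (adjusted p = 0.0715). The block changed no call of a transferase gene. The fish against lard tissue difference was added after its values were seen. Gsta2, Gstm3 and Gstm6 were too shallow in muscle for a diet test.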
